A study of Rattus norvegicus with 4 samples.

Results

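*Cyp2e1*, *Cyp2a1*, *Cyp2a2*, and *Cyp2a3* encode 4 cytochrome P450 enzymes of the rat, and they were chosen by gene symbol from the 16992 genes in the expression tables, with the TPM values of rows longer than 200 base pairs summed per symbol. All 4 symbols were present, each with a single row at the same position in every library. RNA was taken from the liver of male wild type Wistar rats of several weeks of age, from which food and water had been withheld for a short time. The first pair of rats inhaled 4.5% sevoflurane and the second pair inhaled 6% desflurane. In each pair, 1 rat was kept under anesthesia for 6 hours, and the other was sacrificed as soon as it lost consciousness and served as the control of that agent. The controls had therefore also inhaled the agent briefly, and no liver from a rat without anesthesia was part of the design. With 1 sequenced liver for each condition, the difference with either agent has no replicate check in these data and no test. A model pooled over both agents was not fitted. The study also ran quantitative PCR on replicate livers and reported increases of *Por* and *Cyp2b1* with both agents. None of the 4 genes examined here was measured in that way. In addition, whole liver was sequenced, so fewer cells of a type and less RNA per cell cannot be told apart.

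P450 enzymes sit in the endoplasmic reticulum and insert oxygen into their substrates with electrons delivered by the reductase Por. Cyp2e1 is concentrated in hepatocytes around the central vein and oxidizes small molecules such as ethanol, acetone, and volatile anesthetics, and it is the main enzyme that converts sevoflurane to hexafluoroisopropanol and fluoride. Desflurane is broken down far less. Cyp2a1 and Cyp2a2 are liver enzymes of the rat that hydroxylate testosterone, Cyp2a1 being more abundant in females and Cyp2a2 in males, whereas Cyp2a3 is an enzyme of the lung and the nasal mucosa. The libraries make it possible to ask whether the messenger RNA of the enzyme that oxidizes sevoflurane differed after 6 hours of either agent.

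According to the files, which use the rn6 genome, all 4 genes were on the plus strand of chromosome 1. *Cyp2e1* was at chr1:213511905-213522195, far from the others. *Cyp2a3* was at chr1:83653248-83662118, *Cyp2a1* at chr1:83711251-83724933, and *Cyp2a2* at chr1:83711261-83766490. The row of *Cyp2a2* covered 99.9% of the span of *Cyp2a1*, a stretch of 13.7 kb, although the genes do not overlap in the newer GRCr8 annotation of RefSeq. The separate values of these close paralogs are uncertain, because reads in the shared stretch could have been assigned to either.

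RefSeq promoters of the GRCr8 build, from 250 bases before to 50 bases after the start of the gene, matched *Cyp2e1*, *Cyp2a1*, and *Cyp2a3*. They are shown on the plus strand because these 3 genes cover the range of levels described below. That range runs from the most abundant of the P450 genes compared, by mean level, to a gene listed at 0. The capitals mark the letters TATAAA, the core of a TATA box.
Cyp2e1, chr1:205269717-205270016: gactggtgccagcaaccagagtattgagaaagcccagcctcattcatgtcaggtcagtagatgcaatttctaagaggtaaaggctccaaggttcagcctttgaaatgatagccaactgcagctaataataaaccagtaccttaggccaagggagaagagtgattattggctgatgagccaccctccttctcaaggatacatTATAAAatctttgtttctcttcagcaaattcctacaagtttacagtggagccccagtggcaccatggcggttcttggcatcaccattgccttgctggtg
Cyp2a1, chr1:91359028-91359327: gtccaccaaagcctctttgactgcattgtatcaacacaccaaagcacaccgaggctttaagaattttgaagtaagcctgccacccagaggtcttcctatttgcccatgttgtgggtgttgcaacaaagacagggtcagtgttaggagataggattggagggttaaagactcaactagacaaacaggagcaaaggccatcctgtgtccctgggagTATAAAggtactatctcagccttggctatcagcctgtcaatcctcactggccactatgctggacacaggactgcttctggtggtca
Cyp2a3, chr1:91299334-91299633: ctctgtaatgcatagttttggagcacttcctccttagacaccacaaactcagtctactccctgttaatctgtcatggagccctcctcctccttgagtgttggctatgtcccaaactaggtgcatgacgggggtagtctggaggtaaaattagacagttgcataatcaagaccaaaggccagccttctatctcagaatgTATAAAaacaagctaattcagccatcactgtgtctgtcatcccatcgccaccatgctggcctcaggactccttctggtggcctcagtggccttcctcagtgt

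The letters TATAAA were found on the strand of the gene in all 3 promoters, with the first base 49 bases before the start in *Cyp2e1*, 36 in *Cyp2a1*, and 52 in *Cyp2a3*. Of the 33469 RefSeq promoters of the same length, 8.80% held them on the strand of the gene and 14.2% on either strand. CCAAT, searched on both strands and found in 37.5% of promoters, was present on the opposite strand of *Cyp2e1* and *Cyp2a1*. The letters CAAAGTCCA, which HNF4 recognizes, were searched on both strands and were not in these 3 windows, and they were in 131 of all promoters. In global alignments, the promoters of *Cyp2a1* and *Cyp2a3* were identical at 54.8% of aligned positions, compared with 49.2% and 50.5% for *Cyp2e1* against each of them.

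The authors' StringTie tables correspond to between 4.47 and 5.40 Gb of aligned sequence per library. They give no read counts, so counting intervals could not be calculated. Hepatocyte markers were abundant in all libraries, with *Alb* and *Tf* the highest. None of the 10 was called with either agent against its own control. By the criteria given below, 1.28% of all genes were upregulated and 1.9% downregulated with sevoflurane, and 1.62% and 0.859% with desflurane. *Tat* was near the limit with sevoflurane, at 1.99-fold, and it passed the limit against the control for desflurane, at 2.19-fold. Of 9 leukocyte markers, *Ptprc*, *Cd74*, and *Cd79b* were called downregulated with sevoflurane against its own control. Against the control for desflurane, only *Ptprc* was called, at a fold change of 0.445. *Cd74* was at 0.521, and *Cd79b*, at 0.151, was below 2 TPM in that control. The summed TPM values of the list were 477 in the control for sevoflurane and 177 at 6 hours, and 304 and 344 for desflurane. The 8 pancreatic acinar markers summed to 38.6 TPM in the control for sevoflurane and to between 0.521 and 3.33 in the other libraries, each of which listed *Prss1*, *Ctrb1*, and *Pnlip* at 0. All 8 were called downregulated with sevoflurane against its own control, but 0 of 8 against the control for desflurane. All 8 were also lower by more than 2-fold in the desflurane control than in the sevoflurane control. *Cpb1* of this list was called upregulated with desflurane, from 0.784 to 2.59 TPM, close to the limit of 2 TPM. Against the control for sevoflurane, where it was at 5.91 TPM, its fold change was 0.439, a call in the opposite direction. Of 6 erythroid markers, which summed to between 49.1 and 119, *Alas2* was called downregulated with sevoflurane and *Hbb* with desflurane, against the respective control. With the other control, 0 were called with sevoflurane, where the fold change of *Alas2* was 1.04, and 5 were called downregulated with desflurane. None of 4 cholangiocyte markers, which summed to between 14.3 and 21.0, and none of 4 endothelial markers, which summed to between 144 and 167, was called with either agent. Of the cholangiocyte markers, however, *Krt19* and *Sox9* were below 2 TPM in every library and could not be called. The control for sevoflurane therefore stood apart in pancreatic genes and had the highest leukocyte sum, and whether this has a part in the differences below was not tested.

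The TPM of *Cyp2e1* was 3361 in the control for sevoflurane and 2456 at 6 hours of this agent, and it was 2034 in the control for desflurane and 3299 at 6 hours. The highest and the lowest value were both those of control livers, and the livers anesthetized for 6 hours were between them. The average coverage behind these values was between 3809 and 6040 reads per base. The gene was the most abundant of 71 P450 genes in 3 libraries and the third in the desflurane control, and it ranked between 33 and 47 among all genes. These 71 genes are those whose symbol consists of Cyp, a number, letters, and a number. The rule leaves out *Cyp3a23/3a1*, which the study listed as upregulated by both agents, so P450 ranks, sums, and shares here do not include it.

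*Cyp2a1* had TPM values of 366, 349, 437, and 501 in the same order of libraries, which is kept for all series of 4 values. *Cyp2a2* had values of 474, 431, 437, and 521. Both were thus lowest after 6 hours of sevoflurane and highest after 6 hours of desflurane, and the whole range was 1.44-fold for *Cyp2a1* and 1.21-fold for *Cyp2a2*, from the sevoflurane to the desflurane liver at 6 hours. Coverage was between 590 and 878 for these genes, and they ranked between 12 and 17 among the P450 genes.

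*Cyp2a3* was listed at 0 in all 4 libraries, for TPM and for coverage. Its neighbor *Cyp2g1*, which encodes a P450 enzyme of the olfactory mucosa, was also listed at 0 in all of them. No fold change was calculated for *Cyp2a3*. In order of level, *Cyp2e1* was thus between 2.33 and 4.0 times as abundant as *Cyp2a1* and *Cyp2a2* together, a ratio that was lowest in the desflurane control and highest in the sevoflurane control.

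**Figure D1:**
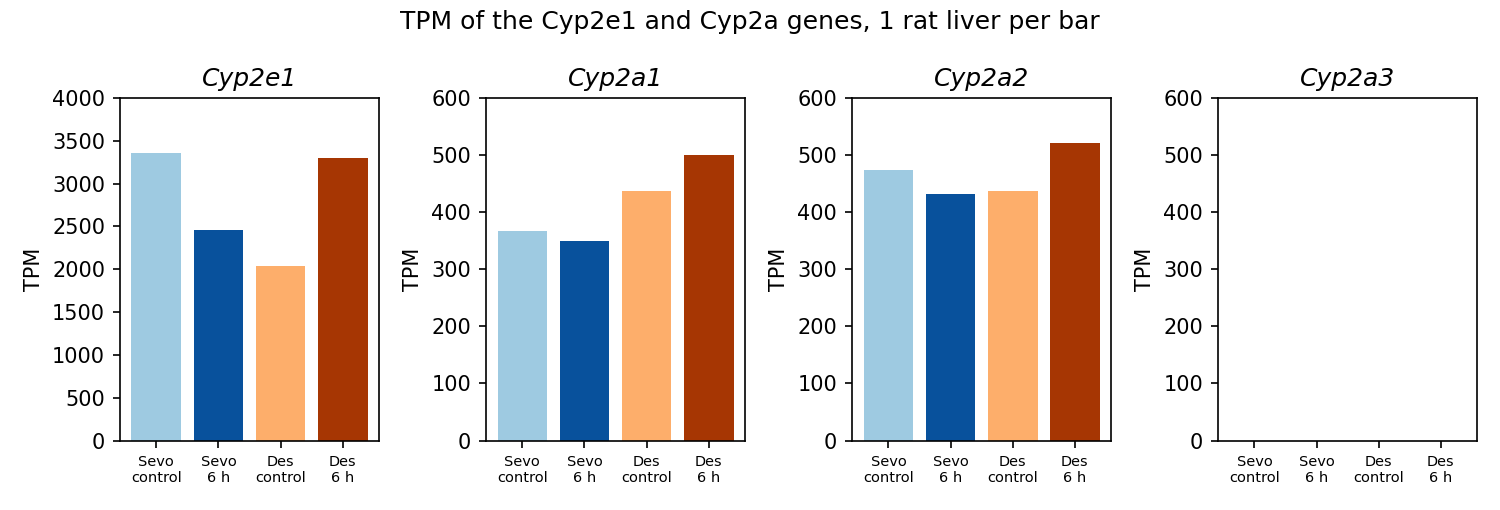
TPM values of *Cyp2e1*, *Cyp2a1*, *Cyp2a2*, and *Cyp2a3* (vertical axes, starting at 0 and with a larger scale for *Cyp2e1*), with 1 bar for each library and hence no error bars. *Cyp2e1* is at 3361 and 2034 in the controls and at 2456 and 3299 after 6 hours, whereas *Cyp2a1* and *Cyp2a2* stay between 349 and 521 and *Cyp2a3* is at 0.

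None of the 4 genes was called upregulated or downregulated by sevoflurane or desflurane by the criteria of the study, which require more than 2 TPM in the higher state and a ratio to the own control beyond 2-fold. By these criteria, 3.18% of all 16992 genes were called in either direction with sevoflurane and 2.48% with desflurane. *Cyp2e1* was 1.37-fold lower after 6 hours of sevoflurane than in its control, a log2 difference of -0.45. After 6 hours of desflurane it was 1.62-fold higher than in its control, a log2 difference of 0.70. For the 9136 genes above 2 TPM in every library, the median log2 difference was 0.05 with sevoflurane and 0.12 with desflurane, and relative to these medians the differences of *Cyp2e1* were -0.51 and 0.58. Of these genes, 20.8% differed by more than *Cyp2e1* with sevoflurane and 8.22% with desflurane.

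The difference of *Cyp2e1* between the controls was larger than either of these. It was 1.65-fold lower in the desflurane control, and 3.03% of the 9136 genes had a larger difference between the controls. With the control of the other agent, *Cyp2e1* was 1.21-fold higher after 6 hours of sevoflurane, where 2.94% of all genes were called, and the fold change after 6 hours of desflurane was 0.982, where 2.57% were called. The direction with each agent was therefore set by which control was used. Between the 6 hour livers, which involve no control, *Cyp2e1* was 1.34-fold higher with desflurane, and 19.5% of genes differed by more. With sevoflurane and the other control, 1.45% of all genes were called upregulated and 1.49% downregulated, and the shares were 1.65% and 0.918% with desflurane and 1.59% and 0.677% between the 6 hour livers. Again, none of the 4 genes passed the 2-fold limit, either between the controls or between the 6 hour livers, where 1.34% and 2.27% of all genes were called.

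The fold change of *Cyp2a1* was 0.952 with sevoflurane and 1.15 with desflurane. That of *Cyp2a2* was 0.909 and 1.19. Differences larger than those of *Cyp2a1* were found in 81.8% of the 9136 genes with sevoflurane and 54.1% with desflurane, and for *Cyp2a2* the shares were 66.2% and 44.0%, so the differences were smaller than those of most genes except for *Cyp2a2* with desflurane. The directions of *Cyp2a1* stayed the same with the control of the other agent, with fold changes of 0.798 and 1.37. Those of *Cyp2a2* were also kept, with log2 differences of -0.02 and 0.14. *Cyp2a1* was 1.19-fold higher in the desflurane control than in the sevoflurane control, the opposite direction to *Cyp2e1*.

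**Figure D2:**
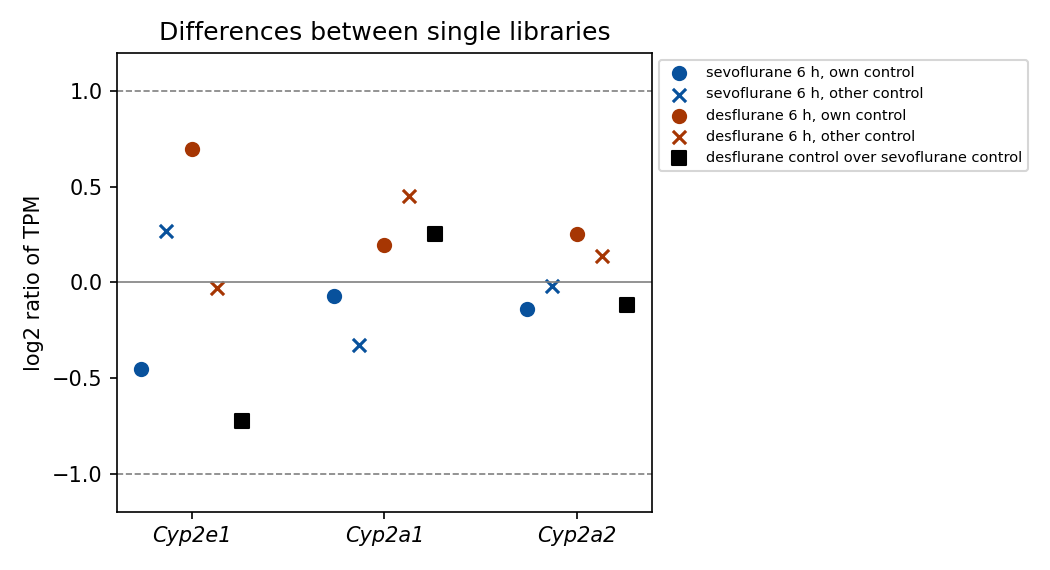
Log2 ratios of TPM values (vertical axis) for *Cyp2e1*, *Cyp2a1*, and *Cyp2a2*, with circles for each 6 hour library against its own control, crosses for the control of the other agent, and squares for the desflurane control over the sevoflurane control. Dashed lines mark 2-fold, which no point reaches, and the circles of *Cyp2e1* at -0.45 and 0.70 move to 0.27 and -0.03 with the other control.

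The row of *Cyp2a2* was examined further because of its overlap with *Cyp2a1*, a choice made after its values were seen. In addition to annotated rows, the files hold rows that StringTie assembled from the reads. For *Cyp2e1*, an assembled row had the same span and the same TPM value as the annotated row in every library. For *Cyp2a1*, an assembled row of the same span had the same value in 3 libraries and 350 instead of 349 after 6 hours of sevoflurane. Downstream of *Cyp2a1*, however, the assembly at *Cyp2a2* consisted of a shorter and a longer piece. These pieces summed to 558, 292, 378, and 299 TPM. On these rows, the fold change of *Cyp2a2* was 0.523 with sevoflurane and 0.790 with desflurane, compared with 0.909 and 1.19 on the annotated row. The longer piece ended at a different base in each library, between 83766507 and 83769983 on chromosome 1. The direction of *Cyp2a2* with desflurane was thus opposite on the annotated row and the sum of the assembled rows. The pieces did not move together, however. The shorter piece was at 73.9, 70.7, 94.1, and 131 TPM, higher with desflurane like the annotated row. The longer piece was at 484, 221, 284, and 168 TPM, so the lower sums came mainly from this piece.

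**Figure D3:**
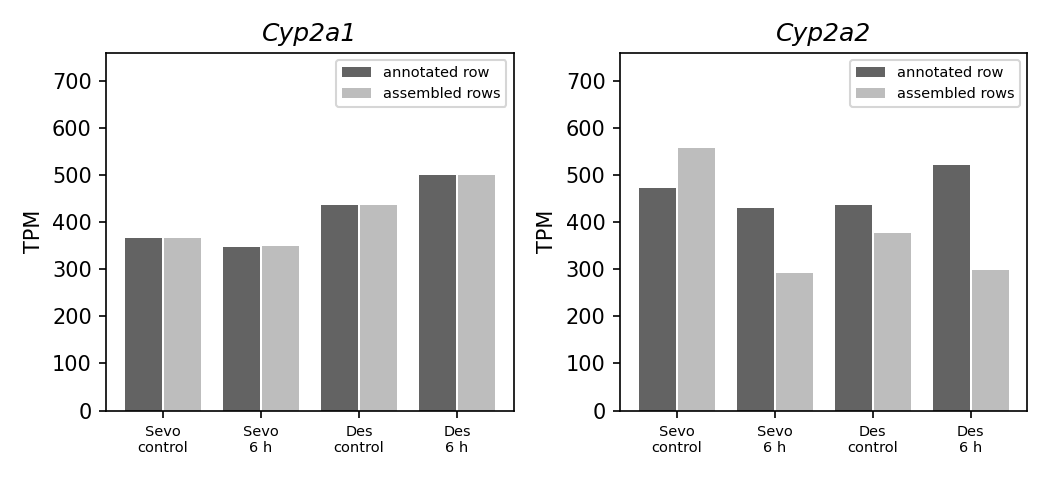
TPM values (vertical axes, starting at 0) of *Cyp2a1* and *Cyp2a2* in each library, with dark bars for the annotated row and light bars for rows assembled by StringTie at the same place. The bars match closely for *Cyp2a1*, whereas those of *Cyp2a2* differ, with 521 against 299 after 6 hours of desflurane.

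Among P450 messenger RNAs as a whole, *Cyp2e1* contributed 15.5% of the summed TPM values in the control for sevoflurane and 10.6% at 6 hours, and 10.5% and 13.9% for desflurane. The sum for all 71 P450 genes was between 19320 and 23673 TPM. Part of it came from *Cyp2b1* and *Cyp2b2*, the phenobarbital-inducible paralogs, which made up 0.787% and 0.936% of the sum in the controls, 15.3% after 6 hours of sevoflurane, and 9.97% after 6 hours of desflurane. Without these genes, the share of *Cyp2e1* was 15.6%, 12.5%, 10.6%, and 15.5% in the same order. The desflurane control remained the lowest and the sevoflurane control the highest in this measure, which does not depend on the scaling of the libraries.

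Of the 71 P450 genes, the one next to *Cyp2e1* in mean level was *Cyp2c7*, at 1978, 1999, 4024, and 2382 TPM, and it exceeded *Cyp2e1* in the desflurane control. *Cyp3a2* followed with 2599, 2437, 1567, and 2172, and its ratio between the desflurane and sevoflurane controls was 0.603, compared with 0.605 for *Cyp2e1*. Excluding the members, 24 of 41 P450 genes above 2 TPM in every library were lower in the desflurane control than in the sevoflurane control (58.5%), compared with 55.3% of the 9136 genes. The level of *Cyp2a2* was next to those of *Cyp4f1* and *Cyp3a18*, and that of *Cyp2a1* was between *Cyp3a18* and *Cyp2d5*. *Cyp3a18* was at 476, 599, 142, and 574 TPM, a 4.06-fold increase with desflurane that was 1.21-fold against the other control.

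**Figure D4:**
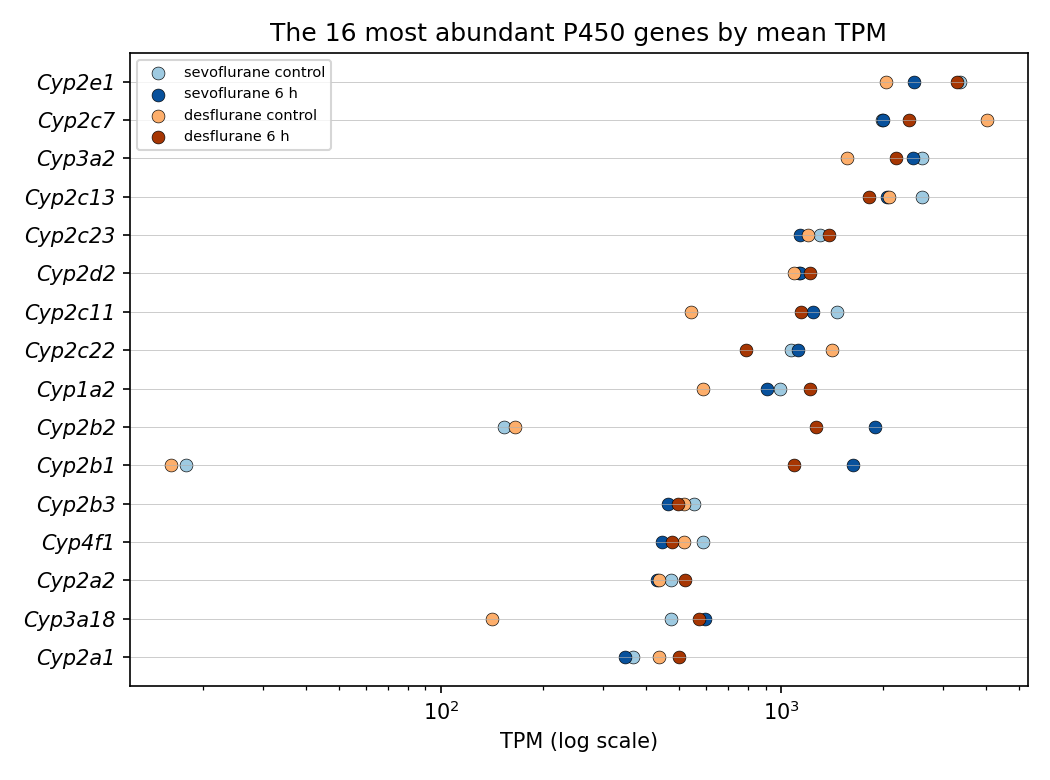
TPM values (horizontal axis, log scale) of the 16 most abundant among the 71 P450 genes, in order of mean level, with 1 point for each library. *Cyp2e1* is at the top with points between 2034 and 3361, and *Cyp2a1* and *Cyp2a2* have closely spaced points, in contrast to *Cyp2b1* and *Cyp2b2*, which are at 1632 and 1893 after 6 hours of sevoflurane and at 17.8 and 153 in its control.

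The *Cyp2a* genes lie in a cluster of Cyp2 genes, and the increase of *Cyp2b1* and *Cyp2b2* was not seen in them. *Cyp2b2*, 592 kb from the *Cyp2a1* and *Cyp2a2* rows, had TPM values of 153 and 165 in the controls, and it was 12.3-fold higher with sevoflurane and 7.71-fold higher with desflurane. *Cyp2b3*, 475 kb away and not known to be inducible by phenobarbital, had fold changes of 0.841 and 0.960. On the other side, *Cyp2f4* and *Cyp2t1* at 169 and 199 kb had fold changes of 0.641 and 0.747 with sevoflurane and of 0.841 and 1.17 with desflurane. Of the 10 Cyp2 genes chosen as neighbors of *Cyp2a*, *Cyp2b1* and *Cyp2b2* were upregulated by both agents, and none was downregulated under the TPM and fold limits. The 8 others included 5 genes with TPM values below 2 in every library. For *Cyp2b1*, *Cyp2b15*, and *Cyp2s1* of this list, no distance from *Cyp2a* is given here.

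Genes that act with Cyp2e1 and Cyp2a enzymes were examined as lists, by their counts beside those of all genes, of which 1.28% were upregulated and 1.9% downregulated with sevoflurane and 1.62% and 0.859% with desflurane. Medians were calculated after adding 1 to the TPM values, over genes with TPM values higher than 2 in at least 1 library, for which the median log2 difference was 0.05 with sevoflurane and 0.11 with desflurane. In the list for electron supply, 1 of 6 genes was upregulated by each agent and none was downregulated. This was *Por*, the reductase of all microsomal P450 enzymes, which increased from 144 to 642 TPM with sevoflurane (4.46-fold) and from 119 to 415 TPM with desflurane (3.48-fold). *Cyb5a*, cytochrome b5, which aids Cyp2e1 in particular, was the most abundant with values of 974, 1153, 791, and 1135. *Pgrmc1*, a heme-binding partner of P450 enzymes, was at 834, 930, 815, and 877. The median log2 difference of the list was 0.09 with sevoflurane and 0.31 with desflurane. Against the other control, the increase of *Por* was 5.38-fold and 2.89-fold, whereas *Cyp2e1* did not pass the limit with either control.

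In the list of genes for oxidation of ethanol and other small molecules, 3 of 13 genes were downregulated by sevoflurane and 1 of 13 by desflurane, and none was upregulated. Alcohol dehydrogenases oxidize ethanol alongside Cyp2e1. *Adh1*, the main one, had TPM values of 952, 452, 810, and 1048, a 2.11-fold decrease with sevoflurane and a fold change of 1.29 with desflurane. *Adh4* decreased 6.35-fold with sevoflurane, from 191 to 30.1 TPM, but it was also low in the desflurane livers, at 34.1 and 55.4. *Adh6* decreased from 162 to 1.17 TPM and was at 8.36 and 14.3 with desflurane. The values of *Adh4* and *Adh6* in the sevoflurane control therefore stood apart from all others, and with the desflurane control the fold change with sevoflurane was 0.883 for *Adh4*, a decrease of 7.16-fold remained for *Adh6*, and *Adh1* did not pass the limit at 0.557. *Aldh1b1*, a mitochondrial aldehyde dehydrogenase, decreased from 39.3 to 13.3 TPM with desflurane, but it was at 19.2 TPM in the control for sevoflurane and was not called with that control. With sevoflurane, *Aldh1b1* was called downregulated only against the desflurane control, at a fold change of 0.396. *Cat*, catalase, which can also oxidize ethanol, was the most abundant gene of the list, at 1969, 1407, 1773, and 1821. The median of the list was -0.18 with sevoflurane and 0.12 with desflurane.

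Hexafluoroisopropanol, the product of sevoflurane oxidation, is excreted as a glucuronide. None of 14 measured UDP-glucuronosyltransferase genes passed the 2-fold limit with the respective control, but 12 of the 13 with sufficient levels were higher with sevoflurane and 12 with desflurane, compared with 56.3% and 66.4% of all 9993 genes above 2 TPM in at least 1 library, with median log2 differences of 0.80 and 0.37. The most abundant gene, *Ugt2b35*, had values of 637, 628, 672, and 720. *Ugt1a1*, the bilirubin-conjugating enzyme, followed with 346, 663, 296, and 477, and its fold change was 1.92 with sevoflurane. The 8 *Ugt1a* genes share most of their exons and had similar values, so they are not separate measurements. *Ugt2b17*, at 281, 308, 288, and 318, and *Ugt2b37*, at 281, 310, 289, and 318, were also nearly the same. The count of 12 of 13 therefore rests on fewer separate measurements than genes. With the desflurane control, *Ugt1a1* and *Ugt1a2* passed the limit with sevoflurane, at 2.24-fold and 2.01-fold.

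Among 17 measured genes that regulate *Cyp2e1* or *Cyp2a* genes, sevoflurane downregulated 2 and desflurane upregulated 1. *Hnf4a*, a general activator of hepatocyte genes, was at 246, 226, 199, and 216, and *Rxra*, the partner of several nuclear receptors, was at 265, 272, 248, and 349. *Foxa2* decreased from 30.5 to 12.7 TPM with sevoflurane, a 2.41-fold decrease, and its fold change was 0.514 with desflurane. *Nr1i3*, the receptor CAR that drives *Cyp2b* transcription, decreased from 52.9 to 22.7 TPM with sevoflurane, and it was at 37.3 and 42.1 with desflurane. *Nr1i2*, the receptor PXR, increased from 54.2 to 153 TPM with desflurane (2.82-fold), and its fold change with sevoflurane was 1.79. Against the other control, *Foxa2* with sevoflurane also passed the limit, at a fold change of 0.284, but *Nr1i3* did not, at 0.610. *Nr1i2* passed it with both agents, at 2.24 with sevoflurane and 2.26 with desflurane. The median log2 difference of the list was -0.06 with sevoflurane and 0.18 with desflurane.

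*Cyp2a1* and *Cyp2a2* are controlled by the sex-dependent pattern of growth hormone secretion. The ratio of *Cyp2a1* to *Cyp2a2* was 0.773, 0.809, 1.0, and 0.961. On these annotated rows, which overlap, it thus differed between the pairs of rats more than within them. The assembled rows did not keep this pattern. There, *Cyp2a1* was below *Cyp2a2* in the control for sevoflurane, at 366 against 558 TPM. It was above *Cyp2a2* in each other library, at 350 against 292, 437 against 378, and 501 against 299. Among 11 other genes of this regulation, 4 were higher and 2 lower by more than 2-fold in the desflurane control than in the sevoflurane control, whereas 0.671% of all genes were called in each direction. *Cyp2c12*, a P450 gene of female rats, was 3.85-fold higher in the desflurane control, at 193 TPM. *Cyp2c11*, its counterpart in males, was at 1457, 1245, 544, and 1146. *Cux2*, a repressor of male genes that is itself female-biased, was at 0.837, 9.59, 9.23, and 15.9, and *Bcl6*, which is male-biased, was at 50.7, 16.6, 5.87, and 8.49. All the livers are from males according to the methods of the study.

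With sevoflurane, 1 gene of this list was upregulated, which was *Cux2*, and 2 were downregulated, which were *Bcl6* and *Cish*. With desflurane, *Cyp2c11* was upregulated 2.11-fold and *Cish* was downregulated. With the other control, *Cish* was still downregulated by both agents, whereas the fold changes were 1.04 for *Cux2* with sevoflurane and 0.787 for *Cyp2c11* with desflurane, and *Bcl6* with sevoflurane was reversed to a 2.82-fold increase. Other genes were called only against that control, namely *Cyp2c11* (2.29), *Cyp2c12* (0.169), and *Socs2* (0.211) with sevoflurane and *Cyp2c12* (3.11), *Cux2*, and *Bcl6* (0.167) with desflurane. *Cish*, a feedback inhibitor that STAT5 induces, was at 21.9, 3.63, 70.0, and 8.40 TPM. The most abundant genes of the list were the male P450 genes *Cyp3a2* and *Cyp2c13*, the latter at 2601, 2048, 2078, and 1813. *Cyp2a2* is likewise a male gene, but with annotated values that varied by no more than 1.21-fold it was less variable than *Cyp2c11*, which was 2.68-fold lower in the desflurane control.

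Because Cyp2e1 is concentrated around the central vein, genes of the same zone were examined. Of 13 pericentral markers, none was called with sevoflurane, and desflurane upregulated 2. These were *Cyp1a2*, the caffeine-oxidizing P450, with 996, 909, 589, and 1214 TPM (2.06-fold), and *Slc1a2*, a glutamate transporter, with 14.4, 12.6, 6.51, and 15.9 TPM (2.44-fold). In both genes, as in *Cyp2e1*, the desflurane control had the lowest value, and with the other control neither was called, at fold changes of 1.22 and 1.11. *Glul*, glutamine synthetase and the classical marker of this zone, was at 397, 251, 285, and 358, and *Rgn*, regucalcin, was at 693, 484, 643, and 479. The median log2 difference was -0.10 with sevoflurane and -0.02 with desflurane, and 9 of the 12 markers with sufficient levels were lower in the desflurane control than in the sevoflurane control (54.6% of all 9993 such genes were). The summed level of the list was 2950, 2485, 2271, and 2781 TPM, and without *Cyp1a2* it was 1955, 1576, 1682, and 1567, so that the lowest value was no longer that of the desflurane control. The part of the zones in the values of *Cyp2e1* was not tested.

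Of 14 measured periportal markers, 2 were upregulated by sevoflurane and 4 by desflurane, with median log2 differences of 0.15 and 0.37. *Arg1*, arginase, was upregulated by sevoflurane, from 726 to 1646 TPM. *Sds*, serine dehydratase, was upregulated by both agents, 3.77-fold and 2.21-fold. Desflurane also upregulated *Ass1* (2.28-fold) and *Pck1* (2.30-fold), enzymes of the urea cycle and of gluconeogenesis, and *G6pc*, glucose-6-phosphatase, by 4.86-fold. With the other control, *Arg1* and *Sds* with sevoflurane and *G6pc* with desflurane were still called, but *Sds*, *Ass1*, and *Pck1* with desflurane were not, at fold changes of 1.55, 1.74, and 0.881. Against the desflurane control, *Pck1* was called upregulated with sevoflurane as well, at 2.37-fold, compared with a fold change of 0.908 against the sevoflurane control. *Pigr*, which carries immunoglobulins into bile and was among the most abundant of the list, was at 1721, 1557, 1750, and 1927. The summed level of the list was higher at 6 hours than in the control with both agents, 10750 against 8849 TPM with sevoflurane and 11643 against 7635 TPM with desflurane.

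**Figure D5:**
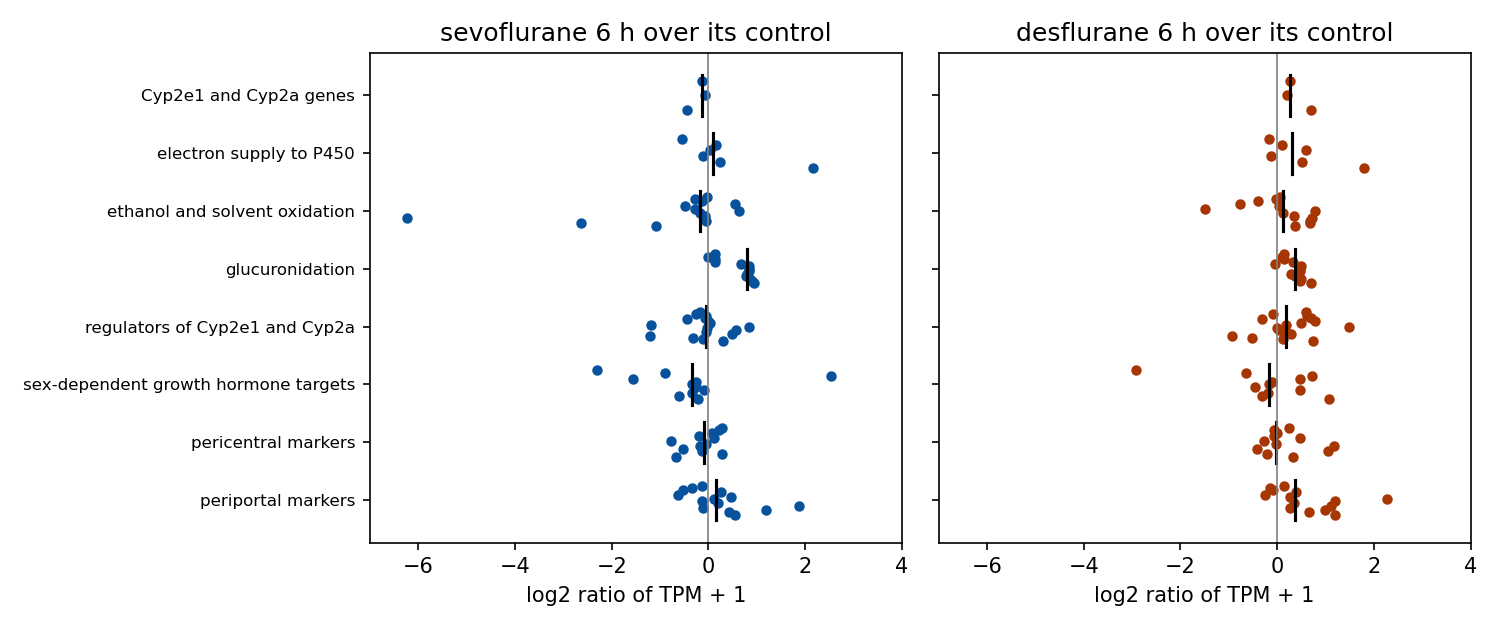
Log2 ratios of TPM + 1 (horizontal axes) for genes of each list with TPM values higher than 2 in at least 1 library, for sevoflurane (left) and desflurane (right) against the respective control, with 1 point for each gene and a black line at the median. The medians of the *Cyp2e1* and *Cyp2a* genes are at -0.14 and 0.25, and the point farthest to the left with sevoflurane is *Adh6*.

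The genes with the pattern most like that of each member were determined from log2 TPM values centered on the mean of the 4 libraries, by the root mean square difference among the 9136 genes. For *Cyp2e1*, they were *Fzd8* (0.06), a Wnt receptor, *Tmem176a* (0.07), and *Mettl7a* (0.07), whereas the median of all genes was 0.32. *Fzd8* was at 64.7 TPM in the control for sevoflurane and at 41.5 TPM in that for desflurane. For *Cyp2a1*, they were *Sntb2*, *Aff1*, and *F8*, which encodes coagulation factor VIII, at differences of 0.02 to 0.03, with a median of all genes of 0.25. For *Cyp2a2*, they were *Arhgap1*, *Zfp703*, and *Pbxip1*, all at 0.01, with a median of 0.18. Each comparison of patterns rests on 4 values per gene.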

How the data were processed

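Liver RNA of 4 rats, 1 for each group, was analysed from deposited tables, with groups taken from the labels. According to the labels and methods, the authors trimmed reads with sickle, mapped them to rn6 with HISAT2, sorted them with SAMtools, and ran StringTie with the refGene annotation. The kit for total RNA libraries is named differently in the labels and the methods. The deposited TPM values are a signal whose sum over assembled rows is 1000000 in each library, with annotated rows listed besides. The deposited average coverage is a signal per exon base without normalization, and the deposited FPKM values were normalized for library size by the authors' run. Here, annotated rows of up to 200 base pairs were left out, and TPM was added up per symbol. Calls follow the criteria of the study, and depth was taken from the median ratio of coverage to FPKM.

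The members and lists were chosen with earlier results of these data known. Named genes are the members, the genes of each list called with either agent, the 2 most abundant of each list, the 3 nearest in pattern, and P450 genes adjacent in mean level, apart from some that are not reported here. Others were named after their values were seen. Alternatives covered scaling, unit, control, pseudocount, limits, duplicate rows, length filter, and assembled rows. RefSeq promoters (GRCr8) were aligned with Biopython. Python 3.11.15, numpy 2.4.6, and pandas 2.3.3 were used. Simulated data with large changes and small noise served to check that the calling was programmed correctly. They do not show how reliable the calls are in these livers.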

Additional observations from a re-analysis of the deposited data

Results flagged for a closer look

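The log2 change with desflurane minus that with sevoflurane, each against its own control, was 1.15 for *Cyp2e1*, 0.27 for *Cyp2a1*, and 0.39 for *Cyp2a2*. These values are listed because each of the 3 genes was below its control with sevoflurane and above it with desflurane. How many of all genes had such opposite directions was not determined, so the pattern is not shown to be unusual. Of the 9136 genes, 81.8% differed by more than *Cyp2a1* with sevoflurane and 54.1% with desflurane. The shares were 66.2% and 44.0% for *Cyp2a2*, and 20.8% and 8.22% for *Cyp2e1*. With 1 liver for each condition, the 3 values listed here have no test. For *Cyp2e1*, both directions changed with the other control. For *Cyp2a2*, the sum of the assembled rows was lower with both agents, although the shorter piece was higher with desflurane.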

How the results depend on the processing

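No member passed the limits with sevoflurane under any of the 13 alternatives, and with desflurane 1 member, *Cyp2e1*, passed when the limit was 1.5-fold. With the other agent's control, the log2 difference of *Cyp2e1* was 0.27 instead of -0.45 with sevoflurane, and it was -0.027 instead of 0.70 with desflurane. With the mean of the 2 controls, it was -0.14 and 0.29. No spread between rats under the same agent was available to judge such moves. The lowest and highest values of *Cyp2a1* were -0.33 and -0.03 with sevoflurane and 0.07 and 0.45 with desflurane. Those of *Cyp2a2* were -0.93 and -0.02 with sevoflurane and -0.34 and 0.25 with desflurane. The values of -0.93 and -0.34 came from assembled rows in place of the annotated row, an alternative chosen after seeing the data, and the second was the only change of sign for *Cyp2a1* or *Cyp2a2*. Median-of-ratios scaling moved the median of all genes with desflurane from 0.12 to -0.00 and the difference of *Cyp2a2* to 0.13. No paired analysis was possible because the groups compared have 1 library each, so that no library could be left out either, and a model with agent and exposure as terms over all 4 livers was not fitted. The files give no read counts, so counting error is not known.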
